A study of Mus musculus with 5 samples.

Results

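Cells make cholesterol from acetyl-CoA through the mevalonate pathway, and they tune it through SREBP2, a transcription factor held in the endoplasmic reticulum membrane with its escort SCAP. When sterols are plentiful, INSIG proteins hold SCAP and SREBP2 there. When sterols are scarce, SREBP2 is carried to the Golgi and cleaved, and it then switches on the genes of cholesterol synthesis and uptake. Dividing lymphoid cells draw on this pathway for new membrane. Transcripts of 8 genes of cholesterol synthesis and its control (*Hmgcs1*, *Sqle*, *Idi1*, *Fdft1*, *Fdps*, *Lss*, *Insig1* and *Srebf2*) were examined in pro-B cells. They were chosen by name from this pathway, and 7 of the 8 had a probe set in the deposited table, 1 each, so that 7 of 17323 genes with a probe set are described. *Sqle*, which encodes squalene epoxidase, was not analysed here.

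Pro-B cells were sorted by FACS from bone marrow of 9-month-old mice as B220+IgM-CD43+CD24+ cells, and their RNA was measured on Affymetrix Mouse Genome 430 2.0 arrays. There were 2 arrays from Vav-Cre Mef2cfl/fl mice, in which a Cre driven by *Vav* promoter elements deletes *Mef2c* in haematopoietic cells, and 3 arrays from control mice. The methods list Mef2cfl/fl, Mef2cfl/+ and Vav-Cre Mef2cfl/+ mice as controls, and the labels do not say which of these each control array was. The samples are described as independent, and the number of animals behind each was not found in those sources. *Mef2c*, the deleted gene, had deposited values of 7379 and 6219 on the *Mef2c*-deficient arrays, against 14006, 20854 and 17220 on the control arrays. Its transcript was therefore lower but still detected, with a log2 fold change of −1.34 (standard error 0.28). The call explained below was lost after repeated quantile normalization (−0.43), cyclic loess (−0.32) or housekeeping centring (−0.57), and no source used here says where its probe set lies relative to the deleted exon.

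The values are those of robust multiarray averaging (RMA), and the deposited table holds them without a logarithm. Their highest is 2322555, and on each array 314 to 430 values lie above 65535, the top of a 16-bit scanner. Their natural logarithms run from 1.15 to 14.66, the usual span of RMA on the log2 scale, so the base e rather than 2 appears to have been used to undo the logarithm. Log2 fold changes below are of the deposited values, and a fold named as signal is on this reading, where a deposited fold of 2 is 1.62-fold in signal. A gene was called changed where limma gave an unadjusted p no higher than 0.05 and the deposited fold was 2 or more. By this rule 13.5% of all probe sets were lower and 10.1% were higher in *Mef2c*-deficient pro-B cells. No probe set had a Benjamini-Hochberg adjusted p under 0.05 (0%) in limma, although 7038 had an unadjusted p of 0.05 or less, and 14 had such an adjusted p by the unpaired test of the methods. Each p measures only the spread between these 5 arrays.

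All 9 measured markers of the early B lineage lay above the array median on each of the 5 arrays, and none was called, although 7 of the 9 were below 0 with a median log2 fold change of −0.86. Above the median on every array were also 7 of 8 neutrophil and macrophage markers. Among these *S100a9* had 978060 to 2045800 over the 5 arrays, against 153020 to 257530 for the early B marker *Cd79a*. *Ebf1*, a factor of B cell commitment, had 29295 and 3026 on the *Mef2c*-deficient arrays, against 29295 to 35416 on the control arrays, and the adaptor *Blnk* had 25010 and 2661, against 18899 to 41783. Of the 9 markers, 3 (*Cd79a*, *Igll1* and *Dntt*) were instead higher on *Mef2c*-deficient replicate 2 than on replicate 1. Markers of other cells also differed between the *Mef2c*-deficient arrays. The summed values of 9 T and NK cell markers were 3626 and 58847 on replicates 1 and 2, against 4592 to 5223 on the control arrays, and 7 of the 9 were highest on replicate 2. *Cd8a*, the T and NK cell marker called higher, was below the array median on all 5 arrays. Of 8 neutrophil and macrophage markers, 7 were higher on replicate 2 than on replicate 1, with *Ltf* at 42337 and 586420, against 81934 to 253470 on the control arrays. The plasmacytoid marker *Irf8* had 6640 and 52822, against 26855 to 37324 on the control arrays, so that replicate 1 lay below all controls and replicate 2 above them for both genes. Of the 8 neutrophil and macrophage markers, however, only 3 were highest of all arrays on replicate 2. Of the 5 measured plasmacytoid markers, 3 were higher on replicate 2, while *Ly6d* and *Tcf4* were higher on replicate 1. Of 9 measured housekeeping genes 5 fell and none rose, at a median log2 fold change of −1.03. Bacterial hybridisation controls, spiked in fixed amount, had a median log2 deviation from the mean of the arrays of 2.03 on *Mef2c*-deficient replicate 1 and 0.19 on replicate 2, against −1.61 to −0.04 on the control arrays. The part of these differences in the results below was not tested. In sorted bulk RNA, a lower value from fewer cells of a type cannot be told apart from less RNA per cell.

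Promoter sequences from RefSeq (GRCm38.p6) were matched by symbol for 5 of the 7 genes. They are shown as the 250 bases before the transcript start, because SREBP2 acts at such sites together with the factor NF-Y, which binds the CCAAT box. Capitals mark a sterol regulatory element core (TCACNCCAC) or a CCAAT box, each searched on both strands. The first sequence belongs to the gene that rose, the next ones to *Insig1* and *Idi1*, which were high on the same *Mef2c*-deficient array, and the last to the gene of SREBP2 itself.
Hmgcs1, chr13:119690101-119690350, plus strand: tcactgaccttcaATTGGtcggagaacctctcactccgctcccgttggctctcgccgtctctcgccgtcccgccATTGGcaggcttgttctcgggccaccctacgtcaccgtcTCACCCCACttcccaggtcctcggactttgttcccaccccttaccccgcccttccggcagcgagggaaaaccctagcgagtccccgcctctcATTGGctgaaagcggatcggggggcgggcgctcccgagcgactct
Insig1, chr5:28071162-28071411, plus strand: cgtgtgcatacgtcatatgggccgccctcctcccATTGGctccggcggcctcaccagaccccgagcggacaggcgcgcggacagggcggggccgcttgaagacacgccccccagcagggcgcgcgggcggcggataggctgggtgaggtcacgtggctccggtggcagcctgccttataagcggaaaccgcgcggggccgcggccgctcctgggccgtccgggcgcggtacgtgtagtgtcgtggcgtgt
Idi1, chr13:8885356-8885605, plus strand: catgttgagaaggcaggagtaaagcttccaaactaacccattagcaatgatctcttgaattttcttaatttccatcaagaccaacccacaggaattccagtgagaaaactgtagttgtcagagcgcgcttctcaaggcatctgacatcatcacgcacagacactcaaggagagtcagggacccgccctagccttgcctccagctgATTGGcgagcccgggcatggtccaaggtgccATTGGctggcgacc
Srebf2, chr15:82147019-82147268, plus strand: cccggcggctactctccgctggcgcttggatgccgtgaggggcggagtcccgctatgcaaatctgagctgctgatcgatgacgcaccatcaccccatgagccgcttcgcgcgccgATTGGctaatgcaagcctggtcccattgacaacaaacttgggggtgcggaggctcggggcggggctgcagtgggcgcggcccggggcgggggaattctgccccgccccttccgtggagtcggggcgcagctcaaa
*Hmgcs1* held 1 sterol regulatory element core, 137 to 129 bases before the start, and 3 CCAAT boxes. The core was in 1.05% of 32851 RefSeq promoter windows of this length and in none of the other 4 matched promoters. Only this exact spelling was searched, so a sterol regulatory element with other letters would not be counted. A CCAAT box was in all 5 matched promoters, including 1 in that of *Lss*, and in 33.8% of all windows. Every one of these boxes lay on the opposite strand and so reads ATTGG as printed, and none overlapped the core. The MEF2 motif was in none of the 5 windows and in 0.508% of all. A match is a description of these letters and not of binding.

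Of the 7 genes *Hmgcs1* alone rose in the absence of *Mef2c*, and none fell. It encodes the cytosolic HMG-CoA synthase, an early enzyme of the mevalonate pathway, and lies at chr13:119690351-119708260. Its deposited values were 51397 and 124940 on the *Mef2c*-deficient arrays, against 23598, 20237 and 23855 on the control arrays. Both *Mef2c*-deficient arrays lay above all 3 controls, and replicate 2 was 2.43-fold above replicate 1, while the controls differed by 1.18-fold at most. The mean was 88169 ± 52004 (SD, n = 2) in *Mef2c*-deficient and 22563 ± 2019 (SD, n = 3) in control pro-B cells. *Hmgcs1* had a log2 fold change of 1.83 (standard error 0.44, 95% interval 0.70 to 2.96), a deposited fold of 3.56 and 2.41-fold in signal. Limma gave an unadjusted p = 0.0088 and an adjusted p = 0.107 over all probe sets. The call held with each of the 5 arrays left out. The value was 1.19 without *Mef2c*-deficient replicate 2, the array highest in 7 of 9 T and NK cell markers, and 2.47 without replicate 1. Each of these values rests on a single *Mef2c*-deficient array. The *Hmgcs1* call also held under each scaling, where the value ran from 1.60 with arrays centred on their medians to 2.77 after cyclic loess.

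On the arrays as deposited, the most abundant transcripts had a median change below 0, and *Hmgcs1* lay above it. It belongs to the brightest 10% of probe sets, of which 31.8% fell and 0.252% (6 of 2381) rose, and 5 probe sets among them, *Hmgcs1* included, had a log2 fold change as high as its own. Over all probe sets 647 did. The median log2 fold change of these bright probe sets was −0.90, and that of all probe sets was 0.19. With 1 of 7 probe sets higher against 10.1% of all, the share of genes that rose is near that of the arrays as a whole.

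**Figure D1:**
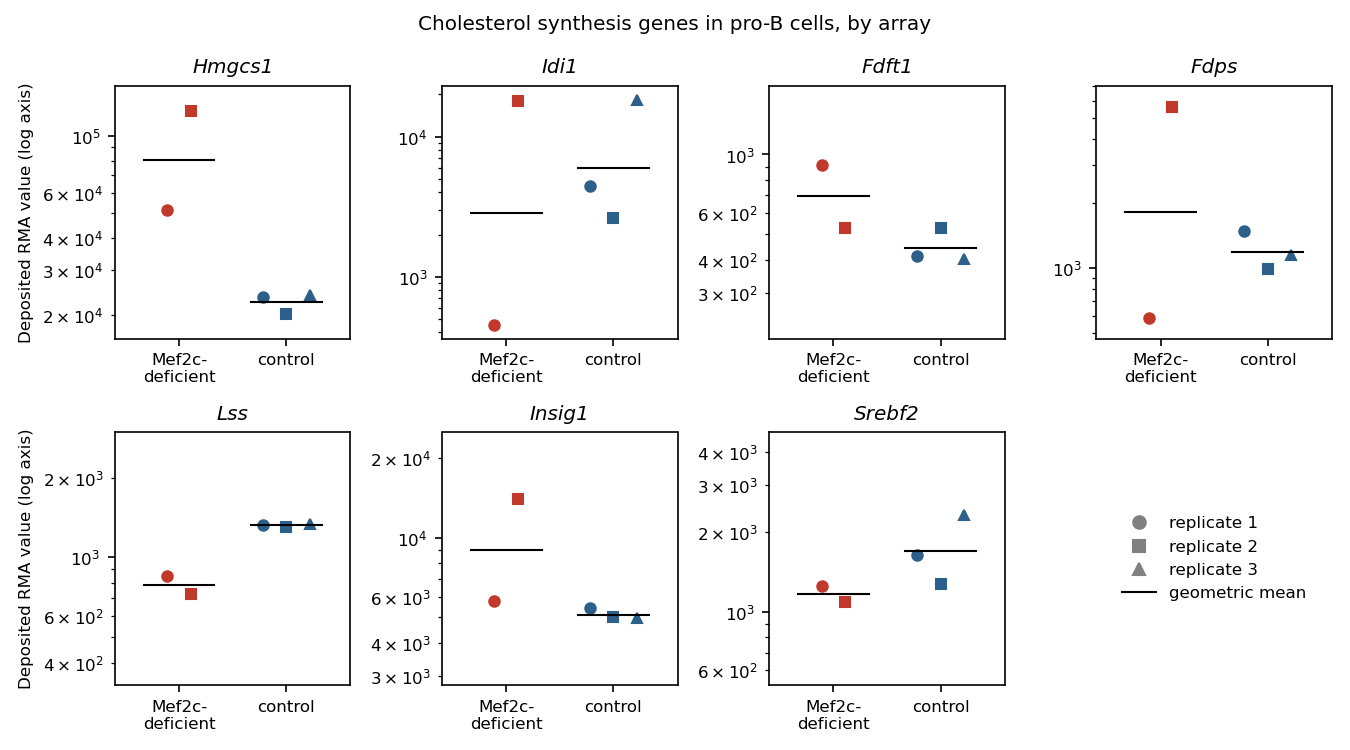
Deposited RMA values (vertical log axis, its range set for each panel) of the 7 measured genes on each array, with *Mef2c*-deficient arrays in red and control arrays in blue, symbols for the replicate number and a line at the geometric mean. *Hmgcs1* lies above all controls on both *Mef2c*-deficient arrays, *Lss* lies below them on both, and *Idi1* and *Fdps* lie far apart on the 2 *Mef2c*-deficient arrays.

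The next enzymes of the pathway join isoprene units. *Idi1*, at chr13:8885606-8892396, encodes the isomerase that supplies the reactive isoprene unit. It had 453 and 17881 on the *Mef2c*-deficient arrays, against 4452, 2606 and 18388 on the control arrays. Replicate 1 was below every control, replicate 2 was close to the highest control, and control replicate 3 was 7.06-fold above control replicate 2. The mean was 9167 ± 12323 (SD, n = 2) in *Mef2c*-deficient and 8482 ± 8629 (SD, n = 3) in control pro-B cells. *Idi1* differed by −1.07 on the log2 scale, which had a standard error of 1.77 and a 95% interval from −5.65 to 3.51 (limma, unadjusted p = 0.57, adjusted p = 0.66), so a change of either direction lies within it. It was 1.58 without *Mef2c*-deficient replicate 1, −3.72 without replicate 2 and −0.26 without control replicate 3, and it did not pass in any of these.

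*Fdps*, at chr3:89093588-89101967, encodes farnesyl diphosphate synthase. It had 587 and 5622 on the *Mef2c*-deficient arrays, against 1478, 984 and 1146 on the control arrays. Here too replicate 1 was below every control, and replicate 2 was above all of them, while the controls stayed within 1.50-fold. *Fdps* had a log2 fold change of 0.62 (standard error 0.99, 95% interval −1.93 to 3.17) and did not pass (limma, unadjusted p = 0.56, adjusted p = 0.65). Its direction was that of the *Mef2c*-deficient array kept. It passed at 2.25 without replicate 1 and at −1.02 without replicate 2, each resting on a single *Mef2c*-deficient array that is taken to vary as the other arrays do.

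*Fdft1*, at chr14:63145150-63181687, encodes squalene synthase, the first enzyme committed to sterols. It had 911 and 529 on the *Mef2c*-deficient arrays, against 414, 529 and 401 on the control arrays. *Mef2c*-deficient replicate 2 and control replicate 2 had the same value, so the groups touched. The log2 fold change of *Fdft1* was 0.64 (standard error 0.34, 95% interval −0.23 to 1.52, limma unadjusted p = 0.12, adjusted p = 0.25). It passed at 1.04 without *Mef2c*-deficient replicate 2 and at 1.41 with arrays centred on housekeeping genes.

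*Lss*, at chr10:76531565-76557139, encodes lanosterol synthase, which closes the rings of the sterol. It had 852 and 728 on the *Mef2c*-deficient arrays, against 1323, 1302 and 1339 on the control arrays. Both groups were narrow and did not overlap, with means of 790.2 ± 88.1 (SD, n = 2) in *Mef2c*-deficient and 1321 ± 18.4 (SD, n = 3) in control pro-B cells. The difference of −0.75 on the log2 scale (standard error 0.23, 95% interval −1.33 to −0.16) was 1.43-fold in signal. Limma gave an unadjusted p = 0.022 and an adjusted p = 0.127, but the change was under the fold of the call. The value was −0.23 after repeated quantile normalization, −0.19 after cyclic loess and 0.02 with arrays centred on housekeeping genes. With arrays centred on their medians it was −0.98. The letters of its probe set name (_s_at) mark probes that can match more than one transcript.

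The remaining members are regulators. *Insig1*, at chr5:28071412-28078662, encodes the anchor that keeps SCAP and SREBP2 in the endoplasmic reticulum, and it is itself a target of SREBP2. It had 5782 and 14000 on the *Mef2c*-deficient arrays, against 5416, 5003 and 4963 on the control arrays. Both *Mef2c*-deficient arrays lay above the controls, replicate 1 only just, and replicate 2 was 2.42-fold above replicate 1. For *Insig1* the log2 fold change was 0.81 (standard error 0.43, 95% interval −0.30 to 1.92, limma unadjusted p = 0.12, adjusted p = 0.25) and did not pass. It passed after repeated quantile normalization (1.69), after cyclic loess (1.83), with housekeeping centring (1.58) and without *Mef2c*-deficient replicate 1 (1.45), and was 0.17 without replicate 2.

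*Srebf2*, at chr15:82147269-82205379, encodes SREBP2. It had 1254 and 1084 on the *Mef2c*-deficient arrays, against 1642, 1269 and 2315 on the control arrays. Both *Mef2c*-deficient arrays were below all controls, but replicate 1 differed little from control replicate 2, and the controls spanned 1.83-fold. *Srebf2* differed by −0.53 on the log2 scale (standard error 0.34, 95% interval −1.41 to 0.34, limma unadjusted p = 0.18, adjusted p = 0.29). Its sign turned after repeated quantile normalization (0.15), cyclic loess (0.15) and housekeeping centring (0.23). Of the 7 genes, 4 (*Hmgcs1*, *Insig1*, *Lss* and *Srebf2*) had groups that did not overlap, as 51% of all probe sets did.

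**Figure D2:**
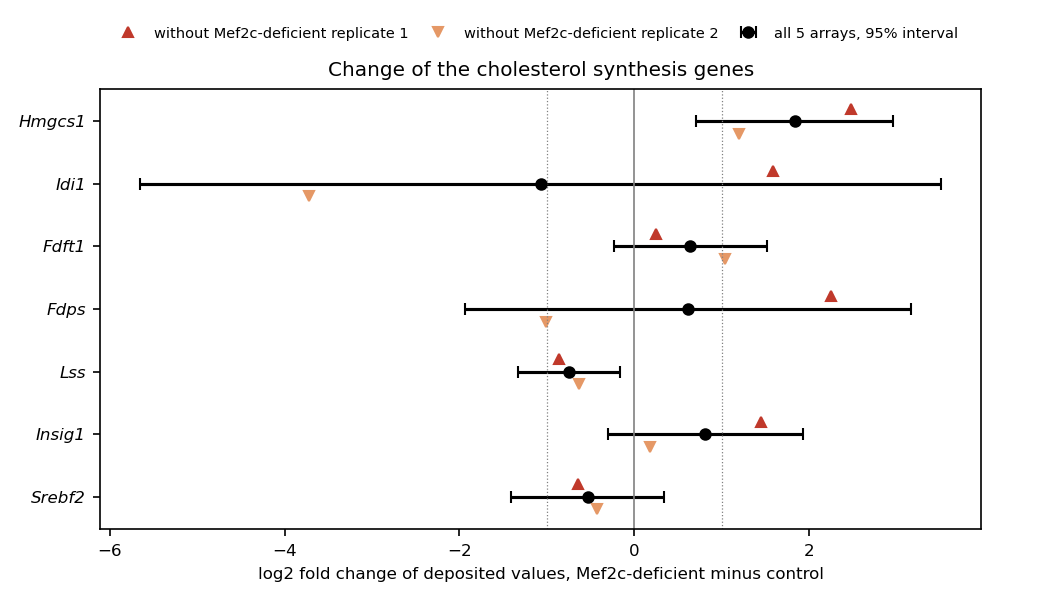
Difference in log2 deposited value, *Mef2c*-deficient minus control (horizontal axis), of the 7 genes with the 95% interval of limma over all 5 arrays (black), and the value without *Mef2c*-deficient replicate 1 or 2 (triangles). The interval of *Hmgcs1* lies above 0 and that of *Lss* below it, and the triangles of *Idi1* and *Fdps* fall on opposite sides of 0. Dotted lines mark a fold of 2.

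Much of the spread within the set lay between the *Mef2c*-deficient arrays. *Idi1* was 39.5-fold higher on replicate 2 than on replicate 1, a larger difference than that of 99.71% of all probe sets, and *Fdps* was 9.58-fold higher, larger than 97.65%. *Hmgcs1* and *Insig1* were also higher on replicate 2, by differences larger than 74.0% and 73.8% of probe sets. *Fdft1*, *Lss* and *Srebf2* were higher on replicate 1, by 1.72-fold, 1.17-fold and 1.16-fold. *Hmgcs1*, *Fdps* and *Insig1* were highest of all 5 arrays on replicate 2. On this array 7 of 9 T and NK cell markers were also highest, and *Ebf1* and *Blnk* were lowest. The median absolute difference between these 2 arrays was 1.28 on the log2 scale over the 7 genes and 0.71 over all probe sets.

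**Figure D3:**
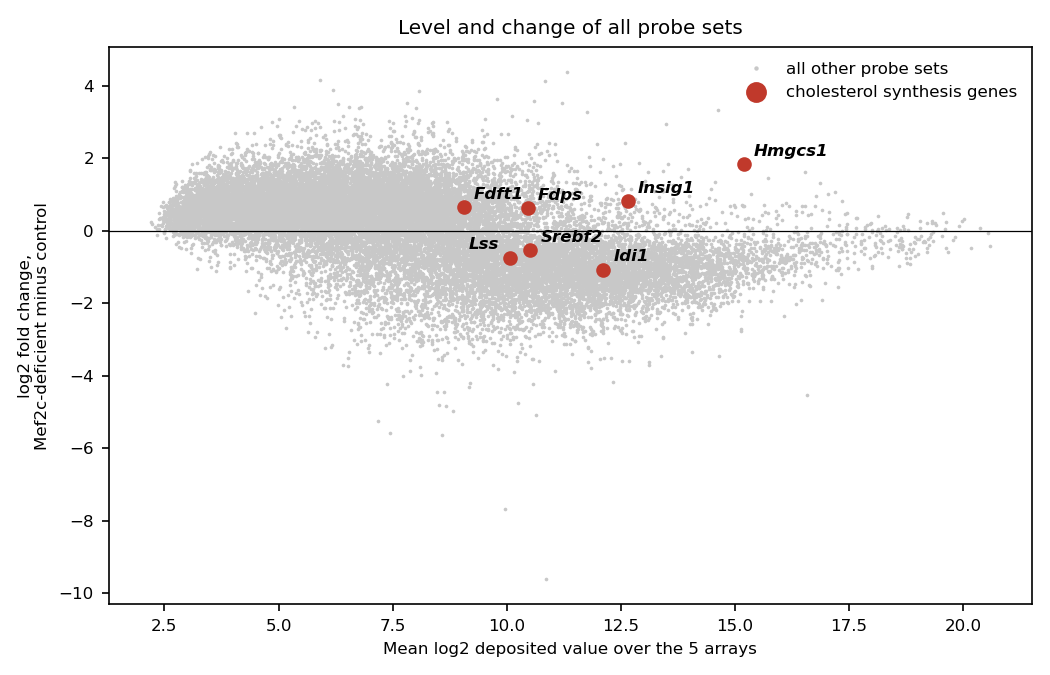
Log2 fold change, *Mef2c*-deficient minus control (vertical axis), against the mean log2 deposited value over the 5 arrays (horizontal axis) for all probe sets (grey) and the 7 cholesterol synthesis genes (red). Bright probe sets lie mostly below 0, and *Hmgcs1* stands above nearly all others of its level.

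A minority of the other genes listed as enzymes of cholesterol synthesis were lower without *Mef2c*. Of 18 listed, 14 were measured, and 4 fell, 10 did not pass and none rose, where 13.5% of all probe sets and 31.8% of the brightest 10% fell. *Cyp51*, the lanosterol demethylase and a known SREBP2 target, had 39.9 and 45.6 on the *Mef2c*-deficient arrays, against 193, 134 and 486 on the control arrays. The groups were well apart on a dim probe set that lay under the median of its array in both *Mef2c*-deficient samples and control replicate 2, where background limits the fold, and its log2 fold change was −2.45 (standard error 0.60). *Nsdhl*, which removes methyl groups from the sterol after CYP51, had 212 and 236 on the *Mef2c*-deficient arrays, against 681, 1309 and 796 on the control arrays, a log2 fold change of −1.99 (0.36). *Ebp*, the sterol isomerase of the next steps, had 3694 and 2859 on the *Mef2c*-deficient arrays, against 5820, 8428 and 7597 on the control arrays, at −1.15 (0.29). *Acat1*, counted among the 4, encodes a mitochondrial thiolase that works mainly in ketone body metabolism, and it fell by 2.02 on the log2 scale (0.39). Each of these 4 had both *Mef2c*-deficient arrays below all controls, and their adjusted p from limma were 0.102 to 0.111. Groups did not overlap, in either direction, in 51% of all probe sets, and the 4 were named because they passed on these arrays. *Ebp* did not pass after repeated quantile normalization (−0.21), cyclic loess (−0.15), housekeeping centring (−0.38) or without *Mef2c*-deficient replicate 2 (−0.96). *Acat1* did not pass after cyclic loess (−0.99), and *Cyp51* did not without *Mef2c*-deficient replicate 1 (−2.35) or replicate 2 (−2.54).

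The median log2 fold change of the 14 enzymes was −0.22, that of the 7 genes of the set was 0.62 and that of all probe sets was 0.19. Among the enzymes that did not pass, a few of which are given here after their values were seen, *Mvk* and *Pmvk*, the kinases of mevalonate, were at 0.63 and 0.26. *Mvk* had 2644 and 1762 on the *Mef2c*-deficient arrays, against 1532, 1642 and 1088 on the control arrays, with no overlap. *Ggps1*, which makes the precursor of protein prenylation from the same intermediates, was at −0.56 and −0.87 on its probe sets, and *Hsd17b7*, an enzyme of sterol demethylation, was at 0.97. After repeated quantile normalization or cyclic loess 3 of the 14 enzymes rose, where 8% and 6.68% of all probe sets did. With housekeeping centring 6 of the 14 rose, where 44.6% of all probe sets did.

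Genes that control SREBP cleavage and sterol uptake were lower or did not pass. Of 16 listed, 12 were measured, 5 fell, 7 did not pass and none rose, and their median log2 fold change was −1.06. By the same call 13.5% of all probe sets and 31.8% of the brightest 10% fell, and the 9 housekeeping genes had a median of −1.03. *Scap*, the escort of SREBP2, had 1908 and 1714 on the *Mef2c*-deficient arrays, against 3344, 2966 and 5259 on the control arrays. Its log2 fold change was −1.05 (standard error 0.34), 1.65-fold in signal. *Mbtps1*, the protease of the first cut of SREBP2, had 280 and 359 on the *Mef2c*-deficient arrays, against 815, 569 and 630 on the control arrays, at −1.06 (0.28). *Rnf139*, a sterol-sensing ubiquitin ligase of the endoplasmic reticulum, had 258 and 295 on the *Mef2c*-deficient arrays, against 1205, 769 and 1266 on the control arrays, at −1.93 (0.32). *Erlin2*, a protein of the endoplasmic reticulum membrane, fell by 1.78 (0.63), and *Stard4*, a cytosolic sterol carrier and SREBP2 target, by 1.20 (0.41) on the log2 scale. The adjusted p from limma were 0.102 to 0.153. *Rnf139* alone of the 5 passed under every alternative. *Scap* kept its call with arrays centred on their medians (−1.28) and lost it under the other 3 rescalings, at −0.22 after repeated quantile normalization, −0.16 after cyclic loess, and −0.28 with housekeeping centring. The last of these also ended the calls of *Mbtps1* (−0.30), *Erlin2* (−1.01) and *Stard4* (−0.44), and cyclic loess that of *Mbtps1* (−0.93). Without control replicate 1, *Scap* (−1.13), *Mbtps1* (−0.92), *Erlin2* (−1.91) and *Stard4* (−1.26) did not pass, and without control replicate 3 *Scap* (−0.80), *Erlin2* (−1.31) and *Stard4* (−0.90) did not. The same 4 genes did not pass without *Mef2c*-deficient replicate 1, at −1.12, −0.89, −2.38 and −1.44, and *Scap* (−0.97), *Erlin2* (−1.18) and *Stard4* (−0.97) did not without replicate 2.

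*Insig2*, the paralogue of *Insig1*, had 214 and 815 on the *Mef2c*-deficient arrays, against 705, 815 and 2454 on the control arrays. Its log2 fold change of −1.42 had a 95% interval from −3.56 to 0.72 and did not pass. *Srebf1*, which encodes SREBP-1, the regulator of fatty acid synthesis, had 1571 and 1214 on the *Mef2c*-deficient arrays, against 2720, 1092 and 2297 on the control arrays, with groups that overlapped. Its value of −0.46 turned to 0.27 after repeated quantile normalization, 0.28 after cyclic loess and 0.31 with housekeeping centring.

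Of 14 genes of sterol efflux and the liver X receptors, the sensors of oxysterols, 11 were measured and 1 fell, against 13.5% of all probe sets. This was *Rxrb*, a partner of these receptors, with 3906 and 3554 on the *Mef2c*-deficient arrays, against 10966, 10338 and 10338 on the control arrays. Its log2 fold change was −1.50 (standard error 0.22), and it did not pass under the same 3 rescalings, at −0.57, −0.48 and −0.73 in this order. *Rxra*, its paralogue and also chosen after its value was seen, was at 0.9991 and just under the fold of the call (limma, unadjusted p = 0.040). *Abca1*, the cholesterol exporter, had 181 and 74.0 on the *Mef2c*-deficient arrays, against 181, 181 and 1062 on the control arrays. Control replicate 3 alone was high, and the log2 fold change of *Abca1* of −1.50 did not pass.

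Fatty acid genes under SREBP-1 moved in both directions. Of 15 listed, 14 were measured, 5 fell, 1 rose and 8 did not pass, with a median log2 fold change of −0.57. Of all probe sets 13.5% fell and 10.1% rose, and of the brightest 10% of probe sets 31.8% fell and 0.252% rose, while 12 of the 14 genes lay above the array median on all arrays. *Fads1*, a desaturase of polyunsaturated fatty acids, had 1040 and 558 on the *Mef2c*-deficient arrays, against 5333, 2383 and 8750 on the control arrays, a log2 fold change of −2.66 (standard error 0.65). *Fads2*, the desaturase that acts before it, had 5348 and 6342 on the *Mef2c*-deficient arrays, against 2370, 2202 and 2370 on the control arrays, at 1.33 (0.23). On these probe sets the paralogues changed in opposite directions, with both groups apart in each, and these calls held under every scaling of the arrays. The only rise of this list, that of *Fads2*, rests on a probe set whose name ends in _x_at. These letters mark probes that can match other transcripts. *Acaca*, the first enzyme of fatty acid synthesis, had 1434 and 2362 on the *Mef2c*-deficient arrays, against 4898, 6824 and 3943 on the control arrays, at −1.47 (0.38). *Elovl6* and *Elovl5*, elongases, fell by 1.64 (0.38) and 1.68 (0.48), and *Mid1ip1*, an activator of acetyl-CoA carboxylase, by 1.23 (0.28) on the log2 scale. The adjusted p from limma of these 6 genes were 0.102 to 0.120. *Fads2* and *Mid1ip1* did not pass at a fold of 2 in signal. *Acaca*, *Elovl5* and *Mid1ip1* did not pass after repeated quantile normalization, at −0.62, −0.76 and −0.31. These 3 also did not after cyclic loess (−0.53, −0.67 and −0.25) or with housekeeping centring (−0.70, −0.91 and −0.46). *Elovl6* did not pass after cyclic loess (−0.91) or with housekeeping centring (−0.87). Calls ended without *Mef2c*-deficient replicate 1 for *Acaca* (−1.11) and *Elovl6* (−1.34), without replicate 2 for *Fads1* (−2.21) and *Elovl5* (−1.03), and for *Elovl5* also without control replicate 1 (−1.69) or 3 (−1.49).

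*Fasn*, fatty acid synthase, had 2238 and 7826 on the *Mef2c*-deficient arrays, against 7356, 5046 and 4395 on the control arrays. The *Mef2c*-deficient arrays lay on either side of the controls, as for *Fdps*, and the log2 fold change of −0.38 (95% interval −1.96 to 1.19) did not pass. It was 0.49 after repeated quantile normalization, 0.60 after cyclic loess and 0.38 with housekeeping centring. Without *Mef2c*-deficient replicate 2 *Fasn* passed at −1.29, and without replicate 1 it was at 0.52. *Scd2*, a desaturase of stearate, was at −0.52, and at 0.37, 0.50 and 0.24 under these rescalings in the same order.

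**Figure D4:**
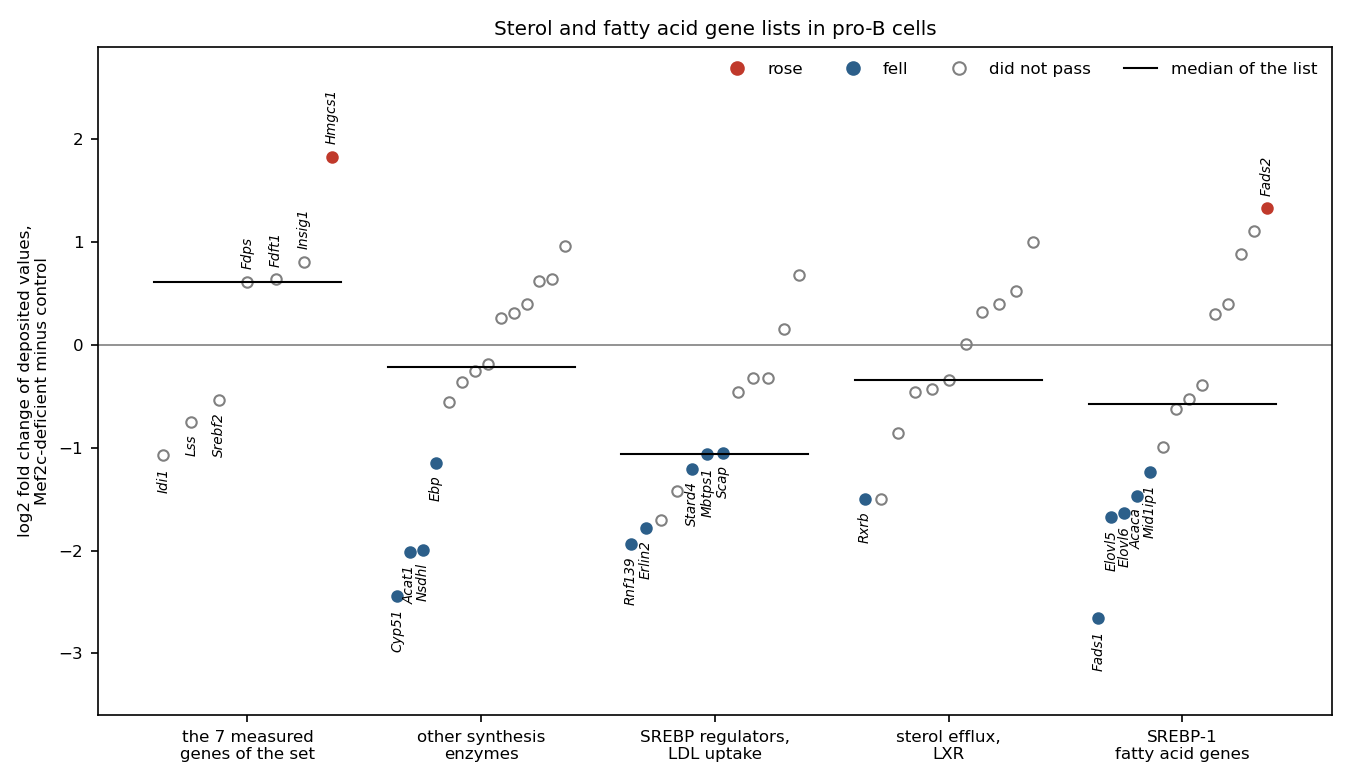
Difference in log2 deposited value, *Mef2c*-deficient minus control (vertical axis), of each measured gene (points) in 5 lists, ordered by value within a list, with a line at the median. Filled points passed the test, and in the 7 genes of the set only *Hmgcs1* did, while 15 of the 16 called genes of the other lists fell. The split of called probe sets varied with brightness, taken in bands of 10%. In the brightest 10%, 757 of 763 fell, but most of the 16 genes were dimmer. In the band of *Ebp*, *Scap*, *Acaca*, *Fads1*, *Fads2* and *Mid1ip1*, 916 fell and 15 rose. In that of *Nsdhl*, *Mbtps1*, *Rnf139* and *Stard4*, 384 fell and 182 rose, and in that of *Cyp51* 148 fell and 370 rose.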

How the data were processed

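The authors sorted the cells, hybridised RNA to Affymetrix Mouse Genome 430 2.0 arrays and deposited 1 intensity per probe set and array, background adjusted, quantile normalized and summarized by RMA. Per the methods, probe sets repeatedly called absent or marginal were left out. RMA and limma are named in the submitters' processing notes without versions. The deposited table held 23835 rows, of which 26 array controls were left out of the test. Of the 23809 probe sets tested, 17621 had 1 gene symbol in the platform annotation, 516 had several and 5672 had none, and genes were named only from the first of these. Values were taken as log2 and fitted with limma 3.58.1 in R 4.3.3 (lmFit and eBayes, no covariate, all 5 arrays) over all 23809 probe sets, and p-values were adjusted by Benjamini-Hochberg. Calls used the cut-offs of the study, a p no higher than 0.05 and a fold of 2 or more. Whether its p was adjusted and which scale its fold was on is not stated, and here the unadjusted p and the deposited fold were used. At a fold of 2 in signal 2025 probe sets fell and 1089 rose, against 3206 and 2401. Intervals are 95% limma intervals. With 2 arrays against 3, an exact permutation test of a single value cannot go below a two-sided p = 0.1, so none is given, and the number of arrays limits the precision. A gene of a list was read at its brightest probe set over the 5 arrays. The text names the 7 measured genes, each called gene of the other lists and a few genes fixed by name. *Mvk*, *Pmvk*, *Ggps1*, *Hsd17b7* and *Rxra*, and the markers given for single genes, were chosen after their values were seen. The genes of the set and the lists were chosen with earlier results of these data known. The fit was tested on simulated data. Alternatives were other scalings of the arrays, array weights, an intensity trend, the unpaired test of the methods, the replicate number as a block, a filter on dim probe sets, the mean over probe sets, a fold of 2 in signal, and each array left out. Housekeeping centring used 9 of 12 listed genes, those with a probe set. Positions and promoters are those of RefSeq GRCm38.p6.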

Additional observations from a re-analysis of the deposited data

How the results depend on the processing

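Of 434 single-gene values under 15 alternatives, 334 kept their direction and side of the threshold, 76 lost the call, 8 gained it and 16 turned sign. *Hmgcs1* and no other gene of the set passed under each alternative. The count of genes of the set that rose was 1, and 2 after repeated quantile normalization, 2 after cyclic loess and 3 with housekeeping centring. With 1 control array left out it was 1 and none fell, where 5.9% to 7.88% of all probe sets rose. Without *Mef2c*-deficient replicate 1 or 2, a single *Mef2c*-deficient array is left. *Insig1* was then at 1.45 or 0.17, *Fdft1* at 0.25 or 1.04 and *Fdps* at 2.25 or −1.02. The cause of these shifts was not tested. Housekeeping centring moved the median log2 fold change of all probe sets from 0.19 to 0.96, and with it 10619 of them rose and 767 fell, against 2401 and 3206 otherwise. The split was 1904 and 1832 after repeated quantile normalization, 1591 and 1832 after cyclic loess and 1558 and 4690 with arrays centred on their medians. All probe sets without *Mef2c*-deficient replicate 1 gave 1386 with an adjusted p under 0.05, and without replicate 2 gave 2524.

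Shares of all probe sets that fell were 7.69% after repeated quantile normalization, 7.69% after cyclic loess and 3.22% with housekeeping centring. They were 8.51% at a fold of 2 in signal, 9.69% with array weights, 8.12% with the unpaired test and 9.17% with the replicate block. The shares that rose were 8%, 6.68%, 44.6%, 4.57%, 6.13%, 5.75% and 4.29% in this order. With 1 control array left out, 9.08% to 10.2% fell and 5.9% to 7.88% rose. Of the other synthesis enzymes, 2 fell after cyclic loess and 2 with array weights, against 4. Of these enzymes, 3 rose after repeated quantile normalization, 3 after cyclic loess, 6 with housekeeping centring and 1 with the replicate block, against 0, and 0 to 1 did with 1 array left out, with 1 without control replicate 3 or *Mef2c*-deficient replicate 2. Of the SREBP regulators and sterol uptake genes, 5 fell, and 3 after cyclic loess, 1 with housekeeping centring, 2 at a fold of 2 in signal, 1 with array weights, 2 with the unpaired test of the methods and 2 with the replicate block, and 1 to 5 with 1 array left out, with fewer than 5 for each array but control replicate 2. Of the sterol efflux genes, 1 fell, and 0 after repeated quantile normalization, 0 after cyclic loess, 0 with housekeeping centring and 1 to 2 with 1 array left out (*Mef2c*-deficient replicate 2). With housekeeping centring 4 of them rose, against 0, and 0 to 1 with 1 array left out (control replicate 1). Of the fatty acid genes, 5 fell, and 2 after repeated quantile normalization, 1 after cyclic loess, 1 with housekeeping centring, 3 with array weights and 3 to 5 with 1 array left out, lowest without *Mef2c*-deficient replicate 1. The number of them that rose was 1, and 2 after repeated quantile normalization, 2 after cyclic loess, 4 with housekeeping centring, 0 at a fold of 2 in signal and 1 to 3 with 1 array left out, highest without *Mef2c*-deficient replicate 2.

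Signs turned after repeated quantile normalization, cyclic loess and housekeeping centring for *Srebf2* (0.15, 0.15 and 0.23), *Srebf1* (0.27, 0.28 and 0.31), *Fasn* (0.49, 0.60 and 0.38) and *Scd2* (0.37, 0.50 and 0.24), and with housekeeping centring for *Lss* (0.022). Without *Mef2c*-deficient replicate 1 or 2, *Idi1* was at 1.58 or −3.72, *Fdps* at 2.25 or −1.02 and *Fasn* at 0.52 or −1.29, which passed. Replicate numbers 1 and 2 occur in both groups, but nothing says that they pair the samples, whose deviations from the group means correlated at 0.105 and −0.031 over probe sets. With the replicate block 2184 probe sets fell and 1022 rose, and *Hmgcs1* passed at 1.87. The value of a probe set below the array median, such as *Cyp51* without *Mef2c*, is limited by background.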
